A study of Mus musculus with 8 samples.

Results

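Chromatin accessibility was described at 10 genes of the AP-1 and immediate early response: Fos, Fosb, Jun, Junb, Jund, Egr1, Ier2, Klf2, Atf3 and Dusp1. The measurements were ATAC-seq peaks of mouse MPP3 and MPP4 cells, early bone marrow progenitors that are biased towards myeloid cells (MPP3) and lymphoid cells (MPP4). The genes were named as a list, with earlier results of these data known, and their peaks were selected on the called position. A peak counted for one of the 10 genes when its centre lay inside the gene or at most 20 kb before or 10 kb after it, and when no other annotated gene was closer. Closeness was measured to the start, middle or end of a transcript, so a peak inside a gene could count for another gene. Of 87642 MPP3 peaks, 40 belonged to the 10 genes, and of 86952 MPP4 peaks, 42 did. Each peak was called a promoter peak when its centre was within 1 kb of an annotated transcript start, a gene body peak when it was elsewhere inside the gene, and a distal peak otherwise.

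The series held 8 libraries of 5000 sorted cells each, 2 for each genotype in each cell type. All mice were C57BL/6 and carried floxed Ebf1 alleles by the sample labels. Ebf1-WT mice were Ebf1fl/fl Tie2Cre +/+ and had no Cre, while Ebf1-KO mice were Ebf1fl/fl Tie2Cre +/cre, in which the Tie2 (Tek) promoter drives Cre in hematopoietic and endothelial cells. The design text of the series instead describes the Ebf1-WT mice as carrying wild-type Ebf1 with Tie2Cre. MPP3 Ebf1-WT mice were 8 weeks old, MPP3 Ebf1-KO mice 8 or 9, MPP4 Ebf1-WT mice 9 and MPP4 Ebf1-KO mice 8 weeks old, and 1 MPP4 Ebf1-WT mouse was male. The gates in the labels were LSK+ CD150- CD48+ for MPP3, with Flt3+ in addition for MPP4 cells. In the values used here, each peak has 1 number per cell type: the authors' mean log2 CPM (CPM are fragments scaled to a common library total) over the 4 libraries of both genotypes. No value per library was analysed, so no spread between mice, no test and no genotype comparison stands behind any statement below. MPP3 and MPP4 peaks were also called and normalized separately, so differences between the cell types are descriptions of these tables.

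AP-1 is a dimer of leucine zipper proteins, made of a FOS protein (FOS, FOSB) with a JUN protein (JUN, JUNB, JUND) or of JUN proteins alone, and ATF3 is a related leucine zipper protein of the CREB and ATF family. These genes, with Egr1, Ier2, Klf2 and the phosphatase gene Dusp1, are known for rapid transcription after growth factors, cytokines or stress, before any new protein has to be made. Serum response factor at CArG boxes, CREB and ATF proteins at cyclic AMP response elements (CRE) and MEF2 factors are known inputs of such promoters.

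The stretches printed here carry exact matches to sequence elements that differed between the promoters and distal peaks of the 10 genes. Variants of the elements were not searched. All stretches lie inside peaks of both cell types. They were read from the reference genome GRCm38 (mm10) and run 5′ to 3′ on the strand of the gene. Capitals in the following promoters mark the CArG boxes of Fos and Fosb and the TATA box (TATAAA) of Fos. The Fos stretch is chr12:85473570-85473869 on the plus strand, with its CArG box ending 300 bases before the transcript start. The Fosb stretch is chr7:19310121-19310381 on the minus strand, with the CArG box ending 257 bases before the start.
Fos promoter: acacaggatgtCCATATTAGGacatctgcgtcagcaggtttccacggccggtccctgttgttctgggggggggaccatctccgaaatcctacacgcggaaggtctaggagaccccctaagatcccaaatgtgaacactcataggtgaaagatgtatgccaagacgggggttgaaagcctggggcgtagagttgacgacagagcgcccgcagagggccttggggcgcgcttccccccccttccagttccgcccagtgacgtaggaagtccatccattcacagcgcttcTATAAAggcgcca
Fosb promoter: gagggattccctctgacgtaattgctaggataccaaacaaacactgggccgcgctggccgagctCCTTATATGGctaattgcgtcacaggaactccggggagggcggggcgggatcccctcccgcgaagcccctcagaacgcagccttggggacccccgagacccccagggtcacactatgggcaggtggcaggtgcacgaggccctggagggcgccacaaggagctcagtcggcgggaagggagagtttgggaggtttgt

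The CArG boxes outside these promoters, in capitals, lay in strong peaks of Junb and Fos. The Junb upstream stretch is chr8:84980099-84980218 and the stretch in the peak at the Junb 3′ end is chr8:84976548-84976677, both on the minus strand. The Fos downstream stretch is chr12:85486070-85486220 on the plus strand, where the second run of capitals is an EGR site (GCGNGGGCG on the other strand).
Junb upstream peak: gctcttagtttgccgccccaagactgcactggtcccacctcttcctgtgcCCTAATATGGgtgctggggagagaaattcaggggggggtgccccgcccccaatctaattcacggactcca
Junb 3′ peak: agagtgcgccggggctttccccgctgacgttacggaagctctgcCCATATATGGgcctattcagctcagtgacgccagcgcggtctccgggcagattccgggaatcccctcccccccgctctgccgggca
Fos downstream peak: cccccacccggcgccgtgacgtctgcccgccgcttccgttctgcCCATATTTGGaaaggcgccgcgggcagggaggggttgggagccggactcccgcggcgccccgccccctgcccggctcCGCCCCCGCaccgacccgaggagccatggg

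Promoters of Jun, Klf2 and Atf3 instead held a MEF2 site close to the transcript start, and that of Dusp1 a CRE (TGACGTCA). The Jun stretch is chr4:95052223-95052372 on the minus strand and overlaps an exon of the antisense non-coding gene Junos, the Klf2 stretch is chr8:72318853-72319003 on the plus strand, the Atf3 stretch is chr1:191183341-191183460 on the minus strand and the Dusp1 stretch is chr17:26508522-26508662 on the minus strand. Capitals mark the MEF2 sites, the CRE and, at the 5′ side of the Klf2 stretch, an EGR site.
Jun promoter: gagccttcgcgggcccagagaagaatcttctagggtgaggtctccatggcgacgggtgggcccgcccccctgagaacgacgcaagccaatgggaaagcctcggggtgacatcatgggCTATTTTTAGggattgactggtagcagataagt
Klf2 promoter: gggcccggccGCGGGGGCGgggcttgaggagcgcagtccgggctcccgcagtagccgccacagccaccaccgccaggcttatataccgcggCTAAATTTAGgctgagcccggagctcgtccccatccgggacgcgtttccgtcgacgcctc
Atf3 promoter: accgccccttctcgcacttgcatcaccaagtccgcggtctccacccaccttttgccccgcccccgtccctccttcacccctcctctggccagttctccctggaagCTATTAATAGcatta
Dusp1 promoter: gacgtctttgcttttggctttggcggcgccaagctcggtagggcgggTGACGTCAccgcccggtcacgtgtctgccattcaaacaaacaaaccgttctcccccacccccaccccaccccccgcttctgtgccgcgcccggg

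Exact AP-1 sites (TGANTCA, in capitals) lay away from the promoters. Near matches, such as tgacatca in the printed Jun promoter, were not counted. Exact sites lay, for example, in an intronic peak upstream of the main Atf3 start (chr1:191193781-191193980, minus strand) and in the peak downstream of Klf2 (chr8:72322643-72322753, plus strand).
Atf3 upstream peak: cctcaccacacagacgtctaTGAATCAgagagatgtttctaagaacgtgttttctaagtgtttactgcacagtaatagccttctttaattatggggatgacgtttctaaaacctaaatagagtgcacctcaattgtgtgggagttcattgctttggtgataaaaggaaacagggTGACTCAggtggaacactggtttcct
Klf2 downstream peak: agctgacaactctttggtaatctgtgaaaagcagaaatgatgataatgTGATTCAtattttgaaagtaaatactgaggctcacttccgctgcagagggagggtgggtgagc

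All 10 genes had at least 1 promoter peak in both cell types. Most of these were among the more accessible promoters, and Atf3 was close to the average. Over the 10 genes, the highest promoter peak had a median log2 CPM of 6.73 in MPP3 and 6.69 in MPP4 cells. Over the 16239 and 16166 genes with a promoter peak, the medians were 4.12 and 4.03, and all 10 genes lay above them. The median percentile of the 10 promoters among all promoters was 94.6 in MPP3 and 96.0 in MPP4 cells, or 96.2 and 94.9 when levels were divided by peak length. Since long peaks collect more fragments, genes are ordered below by log2 CPM per kb of peak, for which the median of all promoters was 5.26 in MPP3 and 5.24 in MPP4 cells.

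Per kb, the Jun promoter was the highest of the 10 in both cell types, at 8.06 in MPP3 and 7.94 in MPP4 cells. Jund and Klf2 followed in MPP3 cells with 7.80 and 7.77, and Klf2 and Jund in MPP4 cells with 7.64 and 7.37. Dusp1, Egr1 and Junb lay close together, at 7.48, 7.46 and 7.45 per kb in MPP3 and at 7.17, 7.31 and 7.09 in MPP4 cells. The next genes, in MPP3 order, were Ier2 (7.01 and 6.64), Fosb (6.98 and 5.82) and Fos (6.88 and 6.79). In MPP4 cells their order was Fos, Ier2 and Fosb. The Atf3 promoter was the lowest of the 10, at 5.45 and 4.69 per kb, which is the 54.8th percentile of all promoters in MPP3 and the 35.1th in MPP4 cells. Jun was at the 99.2nd and 99.4th percentile. With no spread between libraries, the order of neighbours such as Dusp1, Egr1 and Junb was not tested.

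**Figure D1:**
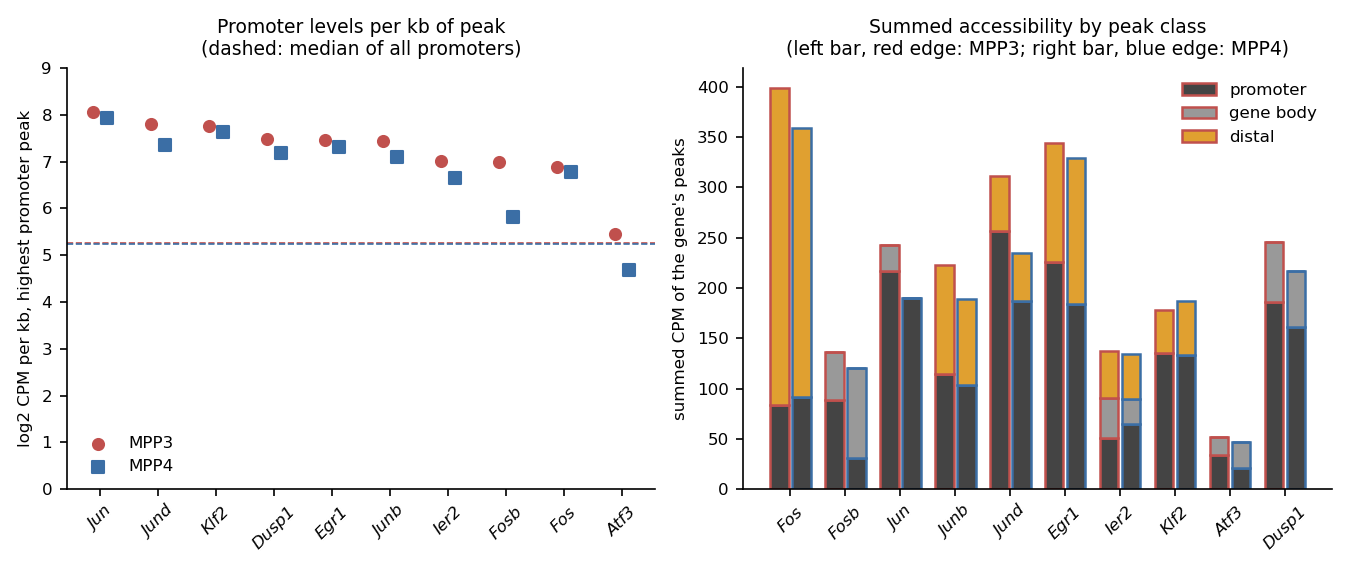
Left, level of the highest promoter peak of each gene in log2 CPM per kb of peak, as the authors' mean over 4 libraries, in MPP3 (red circles) and MPP4 cells (blue squares), with the median of all promoters as dashed lines (5.26 and 5.24). Jun is the highest and Atf3 the lowest in both cell types, and only Atf3 in MPP4 cells lies below the median; right, CPM summed over all peaks of each gene by peak class, where distal peaks make up most of the bar of Fos.

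The FOS genes differed in where their accessible DNA lay. Fos, whose protein is the classical partner of JUN, had 6 peaks in MPP3 and 7 in MPP4 cells, of which 5 were distal in each. Its promoter peak had a log2 CPM of 6.38 in MPP3 and 6.32 in MPP4 cells. A distal peak 18.6 kb upstream, at chr12:85454892-85455756, reached 7.42 in MPP3 and 6.97 in MPP4 cells. It was thus above the promoter, also per kb (7.63 against 6.88, and 7.27 against 6.79), and lay at the 99.9th and 99.8th percentile of all distal peaks. No gene of the annotation used for the assignment (GENCODE vM21) covers that position, but RefSeq places a non-coding gene, Gm38543, at chr12:85452051-85457148. The peak 12.1 kb downstream of the Fos start, which holds a CArG box shown above, had 6.25 and 6.05, at the 99.4th and 99.0th percentile of distal peaks. The other upstream peaks were weaker, with 5.14 and 5.36 at 5.03 kb, 4.58 and 4.22 at 1.61 kb, and 3.10 and 4.01 at 16.0 kb. Promoter peaks therefore held only 20.9% of the summed CPM of Fos in MPP3 and 25.6% in MPP4 cells. An intronic peak 1.34 kb after the start, near the starts of shorter annotated transcripts, was present in MPP4 cells only, at 3.60.

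Fosb, which encodes the other FOS protein among the 10 genes, had no distal peak, and its promoter was cut differently in the cell types. The peak at its start, which holds the CArG box shown above, had a log2 CPM of 5.30 in MPP3 and 4.97 in MPP4 cells. Inside the gene, over a non-coding exon, MPP3 cells had peaks of 5.62 and 4.75 where MPP4 cells had a single peak of 6.11. The centre of the stronger MPP3 peak was within 1 kb of a transcript start and that of the MPP4 peak was not. The highest promoter peak of Fosb is therefore a different site in each cell type, and its promoter share of the summed CPM (64.7% in MPP3, 26.0% in MPP4 cells) depends on that. A peak over the untranslated region near the 3′ end, 6.06 kb after the start, had 4.41 and 4.34. The neighbouring non-coding gene D830036C21Rik took 6 MPP3 peaks of the window upstream of Fosb, the highest at 5.67.

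All 3 JUN genes had most of their summed CPM in promoter peaks. For Jun the share was 89.2% in MPP3 and 100% in MPP4 cells, for Jund 82.6% and 79.7%, and for Junb 51.1% and 55.0%. The Junb share rests on a peak 2.05 kb after the main start, which counts as a promoter peak through a second annotated transcript. The Junb peak at the main start held 68.3 of 223 CPM in MPP3 and 53.8 of 189 CPM in MPP4 cells. Jun, the first known member of the family, had a promoter peak of 7.76 in MPP3 and 7.57 in MPP4 cells. Its only other peak lay over the coding exon, in MPP3 cells only, at 4.71. A further peak of 5.59 in MPP3 cells, at chr4:95053215-95053522, was closer to the start of the antisense gene Junos and does not count among the 10 genes. Jund, which encodes the JUN protein usually present without stimulation, had the peak with the highest log2 CPM of all peaks of the 10 genes in MPP3 cells, 8.01, and 7.55 in MPP4 cells. Its distal peaks were a peak 3.38 kb upstream (4.65 and 4.84), a peak just past the 3′ end (4.85 and 3.79) and, in MPP4 cells only, one 5.17 kb upstream (2.33).

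Junb, whose protein can oppose JUN at some targets, had its accessibility spread over several sites, with its promoter share divided between 2 peaks in MPP3 and 3 peaks in MPP4 cells. The peak at the start had a log2 CPM of 6.09 in MPP3 and 5.75 in MPP4 cells. The peak 1.23 kb upstream, which holds one of the CArG boxes, was higher at 6.59 and 6.16, but lower per kb (7.25 against 7.45, and 6.90 against 7.09). The CArG box at the 3′ side lies in a peak of 5.52 and 5.26, 2.05 kb after the main start. Here a second, downstream transcript of Junb begins in the annotation, so that this peak counts as a promoter peak. A peak over the coding exon was found in MPP4 cells only, at 3.54. The weakest peak shared by both cell types, with 3.67 and 3.76, lay 4.32 kb after the start, inside the neighbouring gene Prdx2 of RefSeq.

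**Figure D2:**
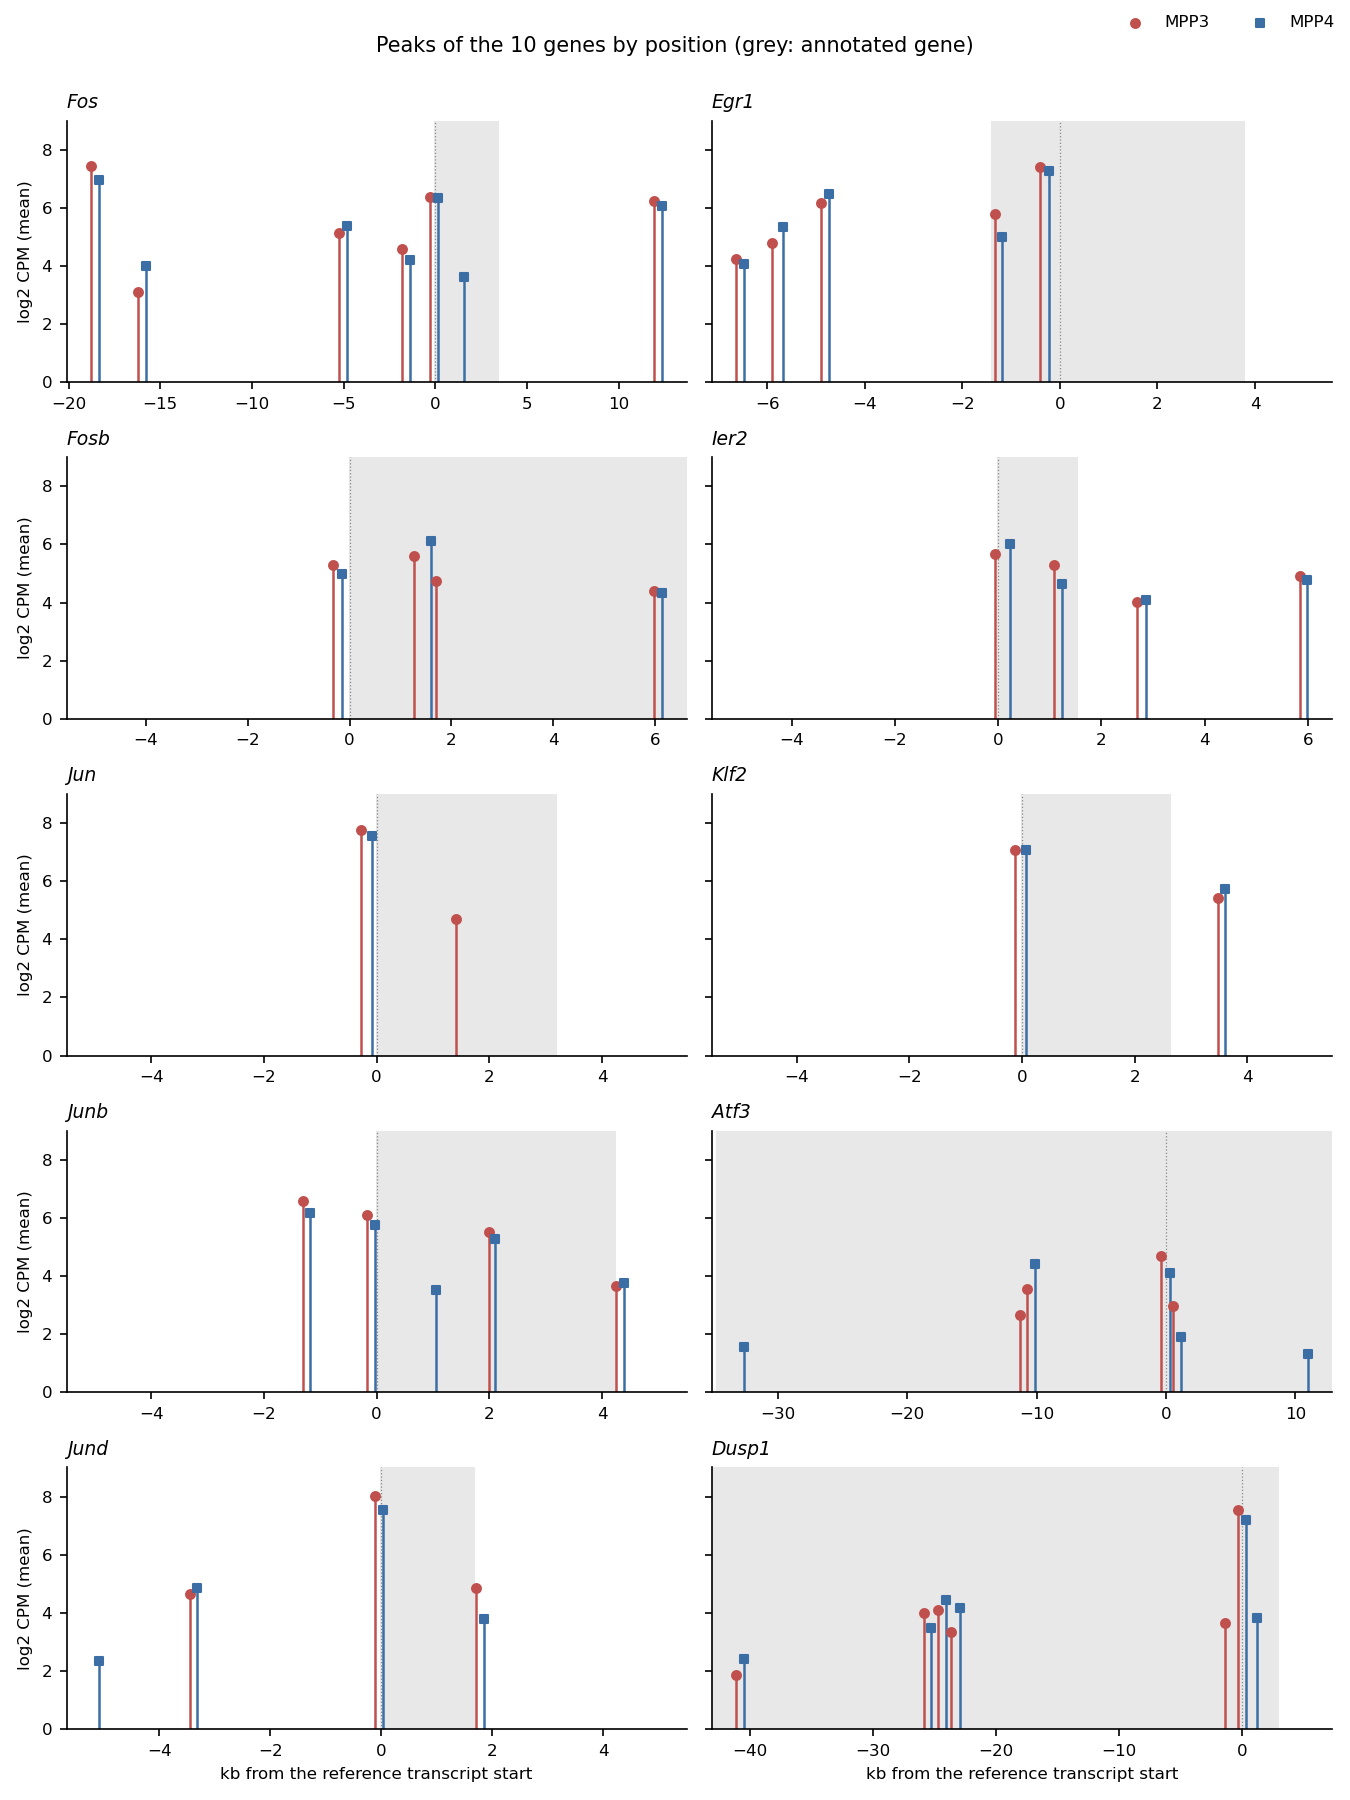
Peaks of each gene by the distance of their centre from the reference transcript start (x axis, kb, positive in the direction of transcription, with MPP3 points moved slightly left and MPP4 points slightly right) and by the authors' mean log2 CPM (y axis), in MPP3 (red circles) and MPP4 cells (blue squares). Grey spans the annotated gene; the strongest distal peak is that of Fos 18.6 kb upstream, at 7.42 in MPP3 and 6.97 in MPP4 cells.

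Egr1, a zinc finger factor that binds GC-rich sites, had 5 peaks in both cell types. The peak at the reference start had a log2 CPM of 7.41 in MPP3 and 7.25 in MPP4 cells. A peak at a second annotated start, 1.25 kb further upstream, had 5.79 and 5.01. Beyond it stood 3 distal peaks with increasing level towards the gene, 4.23 and 4.06 at 6.56 kb, 4.80 and 5.33 at 5.82 kb, and 6.17 and 6.46 at 4.82 kb upstream. The nearest of these was about as high per kb as the promoter peak in MPP3 cells (7.47 against 7.46) and higher in MPP4 cells (7.71 against 7.31). Egr1 lies on chromosome 18, for which no sequence was read.

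Klf2, a Krüppel-like factor known for lymphocyte quiescence and trafficking, had 2 peaks in each cell type. They were the promoter peak, with a log2 CPM of 7.08 in MPP3 and 7.06 in MPP4 cells, and the downstream peak with the AP-1 site shown above, with 5.40 and 5.75, 3.55 kb after the start. Ier2, which encodes a small nuclear protein, had 4 peaks in each cell type. Its promoter peak had 5.67 in MPP3 and 6.02 in MPP4 cells but was longer in MPP4 cells (650 against 395 bp), and per kb the order was the opposite (7.01 against 6.64). The peak over the untranslated region near its 3′ end had 5.31 and 4.64, and the downstream peaks had 4.01 and 4.07 at 2.78 kb and 4.93 and 4.79 at 5.92 kb. Ier2 also shares its upstream side with the non-coding gene Gm26664, whose promoter peak of 5.62 in MPP3 cells began less than 1 kb from the Ier2 peak.

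Atf3, which is known as a stress-induced repressor, was the least accessible of the 10 genes. The peak at its reference start had a log2 CPM of 4.70 in MPP3 and 4.09 in MPP4 cells, and a weaker intronic peak 0.839 kb after it had 2.96 and 1.91. Upstream, in an intron of a longer Atf3 transcript, the peak with both AP-1 sites shown above had 3.57 in MPP3 and 4.40 in MPP4 cells, 10.5 kb from the reference start. A peak next to it was found in MPP3 cells only (2.67), and weak peaks at both ends of the gene in MPP4 cells only (1.33 and 1.57). Dusp1, the phosphatase that inactivates MAP kinases, had a promoter peak of 7.54 in MPP3 and 7.20 in MPP4 cells. This peak held most of the summed CPM, of which promoter peaks made up 75.7% and 74.1%. Between 23.3 and 25.6 kb upstream of the reference start, in an intron of a long annotated Dusp1 transcript, there were 3 further peaks with 3.35, 4.10 and 4.005 in MPP3 and 4.18, 4.43 and 3.47 in MPP4 cells. The other Dusp1 peaks were one 1.13 kb upstream in MPP3 cells only (3.66), one over a coding exon in MPP4 cells only (3.82) and a weak one 40.8 kb upstream in both (1.84 and 2.42). RefSeq places a non-coding gene, 1700049J03Rik, over the peak 40.8 kb upstream.

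The rule by the closest gene left out other peaks in or near the 10 genes. Some of them lay inside the annotated span of Atf3 or Dusp1. Inside Atf3 these were the peaks at chr1:191197957-191198380 (4.37 in MPP3 and 4.93 in MPP4 cells) and chr1:191201191-191201565 (3.76 and 4.62). Both were closer to the non-coding gene Gm24748, and both were higher than the Atf3 intronic peak with the AP-1 sites. In MPP3 cells, 37 further peaks had their centre in the window of one of the 10 genes but lay closer to another gene, which was a non-coding gene for 19 of them. In MPP4 cells these were 38 peaks, also with 19 at non-coding genes. In MPP3 cells the highest was a promoter peak of Hook2 upstream of Junb, with a log2 CPM of 6.01 against 5.80 in MPP4 cells. In MPP4 cells the highest was a distal peak of the non-coding gene D830036C21Rik near Fosb, with 5.83 against 5.67 in MPP3 cells. Fos had no such peak in either cell type.

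By class, the peaks of the 10 genes were strong outside promoters as well. Of the 15 distal MPP3 peaks all 15 lay above the median of distal peaks, and their median log2 CPM was 4.85 against 2.00 over all distal peaks. In MPP4 cells all 16 distal peaks lay above it, with 4.82 against 2.09. Promoter peaks had medians of 5.94 against 3.56 in MPP3 and 5.51 against 3.54 in MPP4 cells. Gene body peaks had 4.005 against 1.96 and 4.26 against 2.05. In all, 39 of 40 MPP3 peaks were above the median of all peaks (2.24), and so were 38 of 42 in MPP4 cells (2.35). Per kb, 39 MPP3 and 39 MPP4 peaks were above the median. Peaks of the 10 genes were also longer, with a median of 368.5 bp against 273 in MPP3 and 383.5 bp against 285 in MPP4 cells.

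Most peaks of the 10 genes were found in both cell types. Among the MPP3 peaks, 3 of 40 had no overlapping MPP4 peak, against 24.3% of all MPP3 peaks, and among the MPP4 peaks 6 of 42 had no overlapping MPP3 peak, against 23.3% of all MPP4 peaks. These 9 peaks were weaker than the highest promoter peak of the same gene, and the highest was the coding exon peak of Jun. Among them were 3 MPP4 peaks of the promoter class, at Fos, Junb and Dusp1. Of promoter peaks alone, 0 of 14 in MPP3 cells had no overlapping MPP4 peak, against 13.3% of all MPP3 promoter peaks. In MPP4 cells it was 3 of 16, against 12.3% of all MPP4 promoter peaks. The peaks of the 10 genes were higher than other peaks, as given above, and the part of peak height in these shares was not tested.

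For the 37 MPP3 peaks with an MPP4 peak, the difference of the log2 CPM, MPP3 minus MPP4, was taken relative to the median of all 66324 shared peaks (-0.04). Its median over the 37 peaks was 0.18, with 22 above and 15 below 0. Strong peaks in general had a similar median, 0.16 over the 15225 shared peaks with an MPP3 log2 CPM of at least 4. The part of peak height in the difference was not tested. The classes differed in sign. Of 14 promoter peaks 12 were above 0, with a median of 0.33, but promoters in general were too: 66.1% of all shared promoter peaks were above 0, with a median of 0.15. Gene body peaks had a median of -0.41 (8 peaks, against -0.10 over all) and distal peaks of -0.02 (15 peaks, against -0.07). Above 0 were 3 of 8 gene body and 7 of 15 distal peaks, against 43.5% of all shared gene body and distal peaks. At least 1 log2 unit higher in MPP3 cells were 2 of the 37 peaks, against 4.12% of all shared peaks, and at least 1 unit lower was 1, against 5.41%. By class, 1 promoter peak was higher and none lower (3.35% and 2.67% of all shared promoter peaks), while 1 distal peak was higher and 1 gene body peak lower (4.47% and 6.35% of all shared gene body and distal peaks). The 10 genes were thus near the background in both directions.

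The peaks beyond 1 unit were those of Jund, Atf3 and Fosb. The peak past the 3′ end of Jund was 1.10 higher in MPP3 cells (4.85 against 3.79 in log2 CPM), but it was also longer there, 223 against 150 bp. The intronic peak after the Atf3 start was 1.09 higher (2.96 against 1.91), with 234 against 159 bp. The Fosb peak at -1.32 was one of the MPP3 peaks that together faced a single MPP4 peak of 754 bp. When overlapping peaks of both tables were joined and their CPM summed, that Fosb region differed by 0.18, with 76.1 CPM in MPP3 and 68.9 in MPP4 cells. Divided by peak length, none of the 37 peaks differed by 1 unit or more.

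Below 1 unit, the larger differences were on both sides. The upstream start of Egr1 was 0.82 higher in MPP3 cells, the gene body peak of Ier2 0.71 and the Atf3 promoter 0.65. The Fos peak 16.0 kb upstream had -0.86, the Atf3 intronic peak with the AP-1 sites had -0.80 and a Dusp1 intronic peak -0.79. Among the strongest peaks, the Fos peak 18.6 kb upstream and the Jund promoter both had 0.49, and the Klf2 promoter 0.06.

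**Figure D3:**
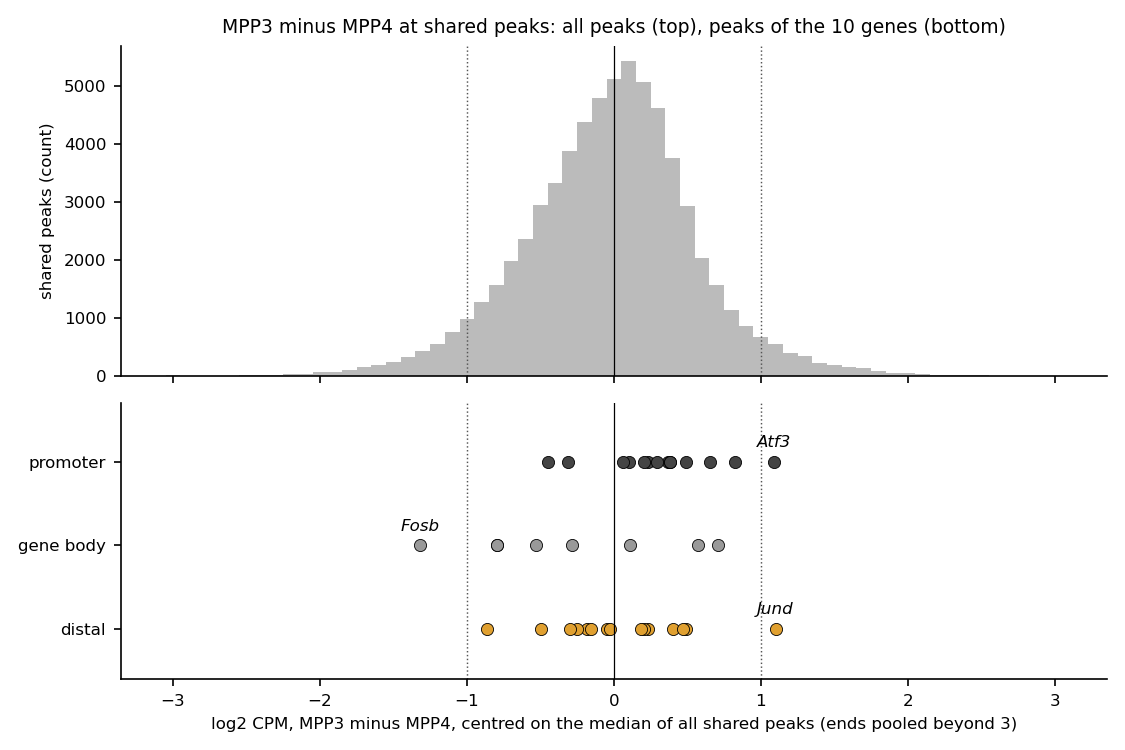
Difference of log2 CPM, MPP3 minus MPP4, at peaks shared by both cell types, relative to the median of all shared peaks; the upper panel counts all 66324 shared peaks in bins and the lower panel shows the 37 peaks of the 10 genes by class, with dotted lines at 1 unit. Only the named peaks of Atf3 and Jund (above 1) and of Fosb (below -1) lie outside the lines, and 12 of 14 promoter peaks are above 0.

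Summed over all peaks of a gene, the 10 genes differed little between the cell types. This sum does not change when a region is cut into more peaks of the same gene. A cut can still move a peak to another gene in 1 cell type, as described below for Atf2 and Dusp5, with summed differences of 2.45 and 1.83. The shares over all genes include such cases. Relative to the median of 23292 genes (0.02), the difference of the log2 summed CPM lay between -0.10 for Klf2 and 0.38 for Jund. None of the 10 genes passed 1 unit in either direction, against 4.43% of all genes higher and 5.45% lower in MPP3 cells. Jun had 243 CPM in MPP3 and 190 in MPP4 cells, a difference of 0.34, and Jund 311 and 235. Junb followed with 0.22 (223 and 189 CPM), then Fosb and Dusp1 with 0.16 each, Fos with 0.13 (399 and 359 CPM) and Atf3 with 0.11. Egr1 with 0.04 (344 and 329 CPM) and Ier2 with 0.01 were almost level. In all, 9 of 10 genes were above 0, but with other choices of window or gene the sign of Fos, Ier2 and Atf3 changed.

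The labels of the cells were compared with marker genes on the same scale. At Flt3, which is part of the MPP4 gate, the summed CPM was 319 in MPP4 and 170 in MPP3 cells, a difference of -0.93. Mpo, a granule enzyme of myeloid cells, had 81.3 CPM in MPP3 and 20.1 in MPP4 cells, a difference of 1.99. Kit had a promoter peak of 5.54 and 5.63 in log2 CPM. Of the genes that the depletion or gate excludes, Cd3e and Ly6g had no promoter peak in either cell type, Slamf1 (CD150) had 1.42 and 1.33 and Itgam (CD11b) 2.85 and 3.16. Ly6a (Sca-1), which defines the sorted cells, had a promoter peak in MPP4 cells only, at 1.15, and Cd48 in MPP3 cells only, at 2.77. In bulk cells, more cells with an open site and more openness per cell cannot be told apart.

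Sequence elements were searched on both strands in the peaks of the 9 genes off chromosome 18, 35 peaks in MPP3 and 37 in MPP4 cells. CArG boxes, the binding site of serum response factor, were in 5 of the 35 MPP3 peaks (14.3%), against 1.26% of all MPP3 peaks, and in 5 of 37 MPP4 peaks (13.5% against 1.35%). These are the peaks of Fos, Fosb and Junb whose sequences are shown above. A CRE was in 3 MPP3 peaks (8.57% against 1.07%), all promoters: Dusp1, Jund, where it ended 207 bases before the start, and Ier2, where it ended 38 bases before the start. Among promoter peaks alone these are 3 of 12, against 2.68% of all MPP3 promoter peaks. MEF2 sites were in 3 peaks (8.57% against 0.596%), the promoters of Jun (ending 24 bases before the start), Klf2 (80 bases) and Atf3 (6 bases). No promoter peak of the 9 genes held exact matches to more than 1 of the 3 elements. Variants were not searched, so a gene without a match can still hold a related site. The printed Fos and Fosb promoters hold tgacgtag and tgacgtaa, which begin with the letters TGACGT of the CRE.

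EGR sites were in 6 MPP3 peaks (17.1% against 3.56%), with 3 in the Jund promoter. By class, they were in 4 of 12 promoter peaks, against 11.9% of all promoter peaks, and in 2 of 12 distal peaks, against 0.662%. EGR sites can overlap GC boxes (GGGCGG), which were in 51.4% of the 35 peaks against 21.8% of all. The GC content was higher too: promoter peaks of the 9 genes had a median of 64.85% against 60.6% over all promoter peaks, and distal peaks 60.6% against 51.0%. The part of GC content, peak length and peak class in these shares was not tested. In a window of 300 bases in total around the peak centre, CArG boxes were in 3 of the 35 peaks, against 1.26% of all.

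Exact AP-1 sites were not more frequent than in other peaks, in 4 MPP3 peaks (11.4% against 11.02%) and 5 MPP4 peaks (13.5% against 11.02%). Of the promoter peaks, 0 of 12 in MPP3 and 0 of 14 in MPP4 cells held one, against 8.1% and 7.8% of all promoter peaks. The sites lay in the Ier2 gene body, downstream of Klf2 and in introns upstream of Atf3 and of Dusp1. In MPP4 cells only, another lay in the weak peak near the far start of Atf3. EBF1 sites (TCCCNNGGG or CCCNNGGGA) were in 5 MPP3 peaks (14.3% against 7.47%), among them the Fos downstream peak, the Fosb promoter and the Jund promoter. By class, they were in 2 of 12 promoter peaks, against 12.25% of all MPP3 promoter peaks. They were in 1 of 11 gene body peaks, against 5.76%, and in 2 of 12 distal peaks, against 5.83%. PU.1-type sites (GAGGAAGT) were in 1 MPP3 peak (2.86% against 9.55%), a Dusp1 intronic peak, and RUNX sites (TGTGGT) in 28.6% against 30.8%. E-boxes (CAGGTG or CAGCTG) were in 51.4% against 38.8% and ETS sites (CCGGAA) in 14.3% against 10.7%.

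**Figure D4:**
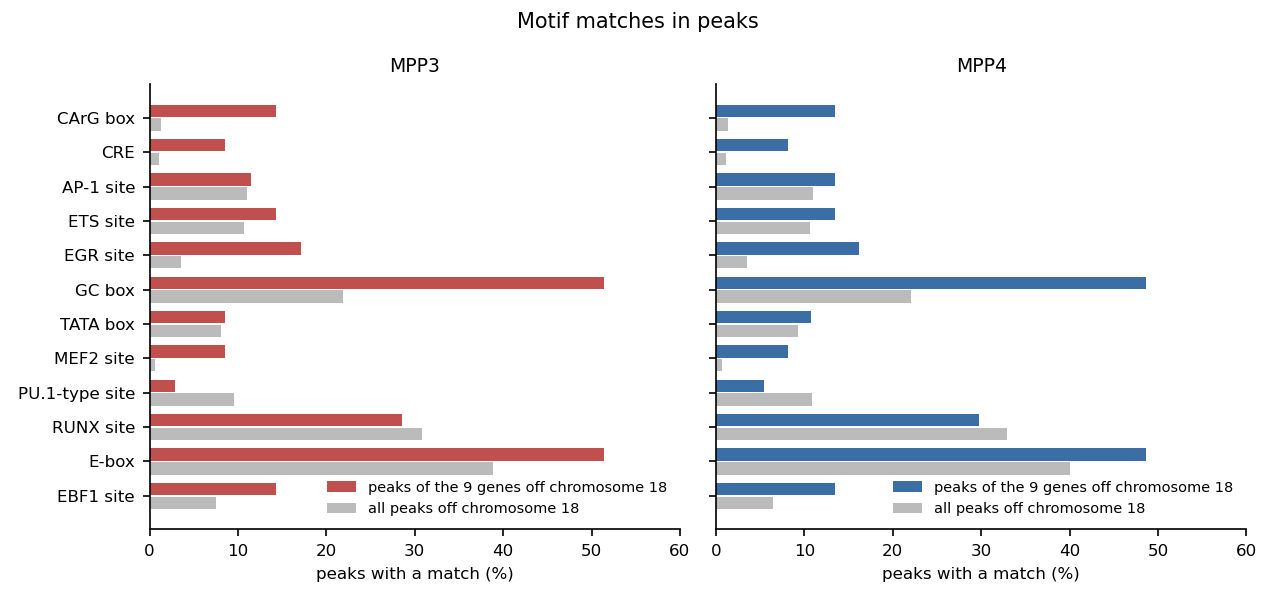
Share of peaks (x axis, %) that hold each sequence element, for the peaks of the 9 genes off chromosome 18 (colour; 35 peaks in MPP3, 37 in MPP4 cells) and for all peaks off chromosome 18 (grey). CArG box, CRE, EGR and MEF2 shares of the 9 genes stand above those of all peaks in both cell types, and the AP-1 site share is 11.4% against 11.02% in MPP3 cells.

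In the promoter windows of RefSeq (GRCm38.p6, 250 bases before to 50 after the start), 8 of the 10 genes matched an entry. MEF2 sites were in 3 of the 8 windows, those of Jun, Klf2 and Atf3, against 0.567% of 31396 windows, and a CRE in that of Dusp1 (1.83% of all). The RefSeq start of Jund lies 1.21 kb upstream of the start used for its peaks, so its window lies outside its promoter peak and does not hold the Jund CRE given above. The RefSeq starts of the other 7 genes lie within 30 bases of the starts used here. TATA boxes were in the windows of Fos and Junb (13.6% of all), and GC boxes in 6 of 8 (35.98%). No CArG box lay in these windows, since those of Fos and Fosb lie upstream of them. AP-1 sites were in none of the 8 windows, against 7.85% of all, which says only that these letters are not in the window.

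Related genes were described by the same rule. Of 16 other AP-1 subunits and relatives, 15 had a promoter peak in MPP3 and 14 in MPP4 cells, with a median percentile among all promoters of 46.1 and 47.4. This is lower than the 94.6 and 96.0 of the 10 genes. The highest were Atf7 (7.19 and 7.03 in log2 CPM) and, in MPP3 cells, Fosl2 (7.15), and the lowest in MPP3 cells were Batf2 (2.00) and Batf (2.77). Atf5 had no promoter peak in either cell type. Of 33 other immediate early genes, 32 had a promoter peak in each cell type, with a median percentile of 78.4 in MPP3 and 80.4 in MPP4 cells. Here Rhob (7.30 and 7.21), Klf10 (7.27 in MPP3 cells) and Dusp2 (7.05 in MPP4 cells) were highest, and Egr4 (1.88) and Egr3 (3.05) lowest in MPP3 cells. Ccn1 had no promoter peak in MPP3 cells and one of 1.40 in MPP4 cells. All 12 upstream regulators had promoter peaks, with medians at the 86.1st and 86.7th percentile. Crem (7.12 and 6.86) and Creb1 (6.93 and 6.71), which act through the CRE, were highest, Elk3 was lowest in both cell types (3.46 and 3.60), and Srf had 6.16 and 5.76.

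Relative to the median of all genes, the promoter difference between the cell types passed 1 unit at 1 of these genes, against 2.3% of genes higher and 3.23% lower in MPP3 cells. This was Jdp2, with -2.02, but the assignment accounts for the value: the MPP3 peak at the Jdp2 promoter site, with 5.44 against 5.38 in MPP4 cells, was closer to the non-coding gene Gm47863. In the same way Atf2 and Dusp5, which have no promoter peak in MPP4 cells by the rule, had peaks of 5.99 and 6.00 at the same sites that were closer to Gm10822 and AC137853.2. None of the 10 genes had a promoter site that was given to another gene in 1 cell type only.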

How the data were processed

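ATAC-seq libraries of MPP3 and MPP4 cells were trimmed by the authors with cutadapt 2.10, mapped to mm10 with duplicates removed and reduced to short, nucleosome-free fragments with deepTools 3.3.2. The authors called peaks with MACS2 2.2.7.1 on the merged replicates of each condition, merged them within a cell type with bedtools and fitted genotypes with edgeR 3.32.0. The deposited value used here is the authors' mean log2 CPM of each peak over the 4 libraries of a cell type, which in linear CPM sums to 1034292 for MPP3 and 1032362 for MPP4 cells. The other deposited columns hold the authors' own comparison of the genotypes (log2 fold change, F score, p-value and FDR) and were not used. The study's methods state a target sequencing depth for the libraries, but read counts per library and peak were not analysed here, so the counts behind a value are not given.

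Peaks were assigned to the closest GENCODE vM21 transcript by the distance of their centre to its start, middle or end, within 20 kb upstream or 10 kb downstream. For each gene, the reference start is the annotated start nearest to that of RefSeq. An MPP3 and an MPP4 peak counted as shared from an overlap of 1 bp on, with the longest overlap deciding. All 31396 RefSeq promoter sequences equalled the genome at their coordinates, and chromosome 18 was left out of sequence searches. Calculations used Python 3.11.15, numpy 2.4.6 and pandas 2.3.3, with plots by matplotlib 3.10.9, and were tested on simulated data. The 10 genes, the other lists, the sequence elements and the rule for named genes (every peak of the 10 genes, and in the other lists the highest and lowest promoters, those past 1 log2 unit and those without a peak) were chosen with earlier results of these data known.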

Additional observations from a re-analysis of the deposited data

How the results depend on the processing

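No paired analysis was possible because the columns hold 1 mean per peak over the libraries of both genotypes, and for the same reason no replicate could be left out. Of 53 values under other settings, 47 stayed within 1.5 times a count, 10 percentile points or 0.585 log2 units of the reported value. The log2 limit is larger than the medians it was applied to, 0.18 for shared peaks and 0.14 for summed differences. Staying within it therefore says little about them: with protein-coding genes only, the summed median fell to 0.04. With every peak in the window of one of the 10 genes, whatever gene was closest, the peaks rose from 40 to 77 in MPP3 and from 42 to 80 in MPP4 cells, since peaks of neighbours were added. The count of shared peaks at least 1 log2 unit apart went from 3 to 0 per kb of peak length, and to 11 at a threshold of 0.5, which 34.6% of all shared peaks passed. CArG boxes were in 3 rather than 5 MPP3 peaks when only a window of 300 bases in total around the centre was searched. The Dusp1 CRE was lost (0 rather than 1 promoter window) with 100 bases before the start. Centred on promoters, 19 rather than 22 of the 37 shared peaks were above 0, with a median of 0.03. The number of genes with a summed difference above 0 was 7 rather than 9 with a window of 10 kb upstream and 5 kb downstream, where Fos had -0.12. It was also 7 with protein-coding genes only, where Atf3 had -0.26 and Ier2 -0.18. This setting and the joined regions were chosen after seeing the data.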
